A study of Mus musculus with 25 samples.

Results

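The genes described here are 37 mouse genes of fatty acid oxidation and ketogenesis, listed by symbol and matched to the Ensembl identifiers of the deposited count files, which hold 41388 identifiers. All 37 passed the filter on low counts and were among the 14065 genes tested. The study asked how hepatocyte NAMPT, which turns nicotinamide into a precursor of NAD, acts in livers with and without SIRT1, an NAD-dependent deacetylase. Liver RNA was selected for poly-A tails and sequenced from 25 male C57B/6J mice of 20 weeks of age, 1 library per mouse. Every mouse carried floxed Sirt1 alleles (Sirt1 fl/fl). WT mice were littermates without Cre, and liver-specific knockouts (LKO) carried Cre under the albumin promoter. All mice, controls included, received an AAV8 virus by tail vein that was either empty (EV) or carried NAMPT behind the hepatocyte-directed thyroxine-binding globulin promoter. By the sample labels, the virus was given to all groups 12 weeks before collection, as the diet period began. The vector comparisons below therefore concern livers long after injection. The groups were chow WT EV (n = 3) and, after 12 weeks of Western diet (WD), WD WT EV (n = 6), WD WT NAMPT (n = 6), WD LKO EV (n = 5) and WD LKO NAMPT (n = 5). The general treatment note of the labels names the insert as SIRT1, whereas the sample titles, used here, say NAMPT. There is no cage, batch, hour of tissue collection or feeding state among the labels.

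Fatty acids that enter a hepatocyte are joined to coenzyme A, carried into mitochondria as carnitine esters and shortened step by step by beta-oxidation, and the electrons released pass through the electron transfer flavoprotein to the respiratory chain. Very long chains are first shortened in peroxisomes. In the liver much of the acetyl-CoA is made into ketone bodies, which other organs burn. The nuclear receptor PPARA, active in fasting and after fat intake, switches on many genes of all these steps.

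Total counts ran from 20166175 to 32937326 per library. The hepatocyte gene Alb, a check of the labelled tissue, stood at 31214 to 54057 CPM (counts scaled to library size with TMM factors) across all libraries. The targeted gene did not separate the genotypes: Sirt1 stood at 7.61 to 9.51 CPM in the 12 WD WT libraries and at 7.15 to 11 CPM in the 10 libraries labelled WD LKO, counted over the whole gene, so that reads outside a deleted stretch count too. Nampt stood at 38.2 to 54 CPM in WD WT EV and 46.7 to 77.7 CPM in WD WT NAMPT, and at 45.9 to 75.5 CPM in WD LKO EV and 53.9 to 126 CPM in WD LKO NAMPT. Both pairs of ranges overlapped. Genotype and vector are therefore given as labelled, LKO below means the libraries labelled so, and p-values measure the spread between these mice.

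The WD WT NAMPT libraries differed widely among themselves. Relative to the WD WT EV mean, the median over the 37 genes on the log2(CPM + 0.5) scale was -0.82 in replicate 1 and -0.78 in replicate 2, and between -0.31 and -0.1 in replicates 3 to 6. The summed level of 6 recruited macrophage markers (Cd68, Itgax, Gpnmb, Trem2, Ccr2 and Lyz2) was 389, 482, 337, 226, 150 and 65.6 CPM in replicates 1 to 6, against 60.2 to 140 CPM in WD WT EV. Replicates 3 and 4 lay above the EV range of the markers, with gene set medians of -0.31 and -0.3. The WD WT EV libraries ran from -0.23 to 0.21 for the gene set. Replicate 3 had the highest sum of 5 Kupffer cell markers, 592 CPM. Gpnmb, a marker of lipid-laden macrophages, was near 0 in replicate 6, at 0.0538 CPM. The WD LKO NAMPT libraries lay between -0.14 and 0.31 for the gene set and between 81.3 and 280 CPM for the macrophage markers. In whole liver, fewer cells of a type and less RNA per cell cannot be told apart.

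**Figure D1:**
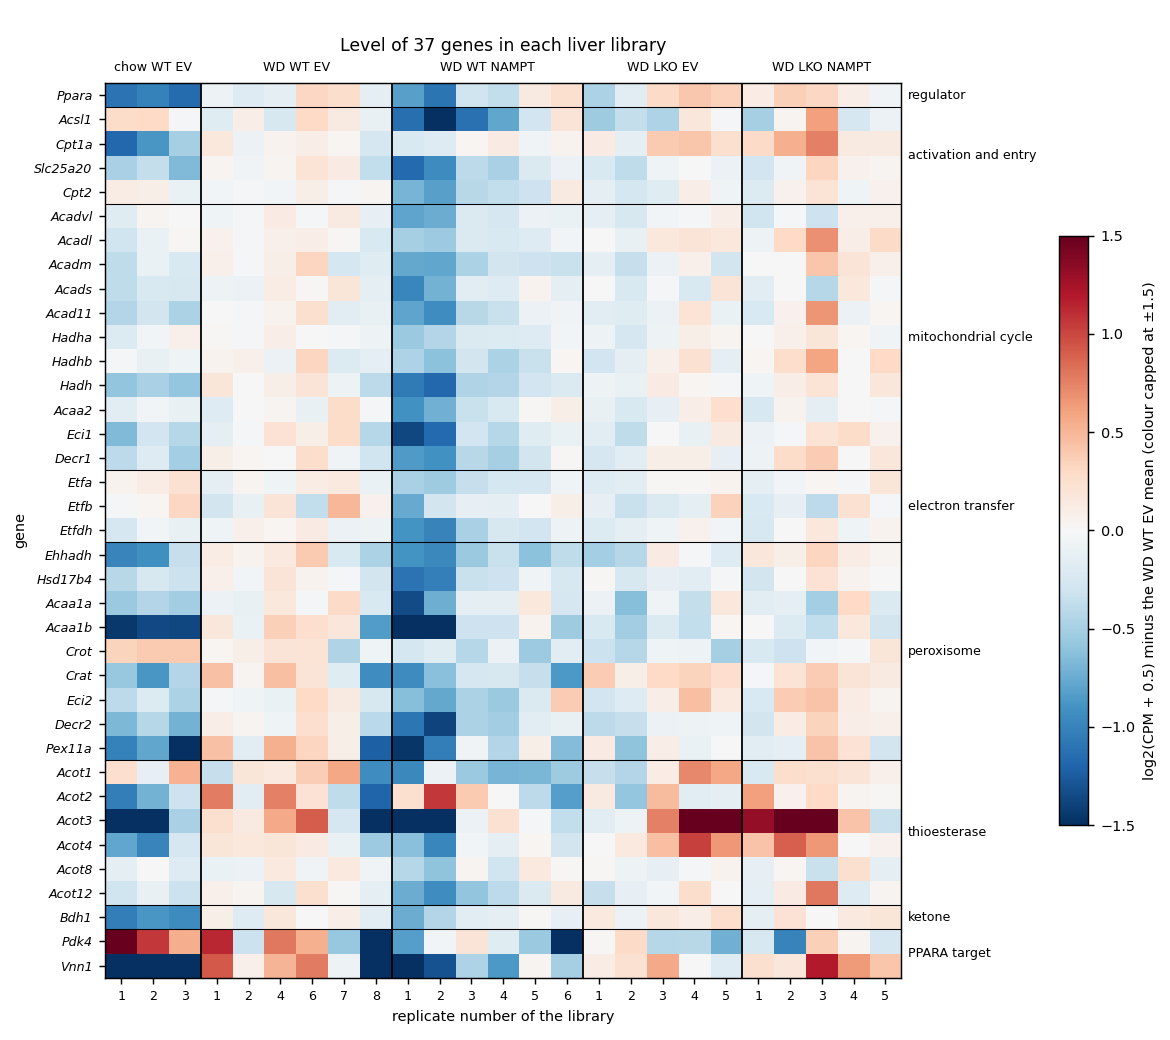
Heat map of the 37 genes (rows, grouped by role) in the 25 libraries (columns, grouped as labelled). Colour is log2(CPM + 0.5) minus the mean of WD WT EV for that gene, capped at ±1.5. WD WT NAMPT replicates 1 and 2 are the lowest libraries over most genes, with medians of -0.82 and -0.78.

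**Figure D2:**
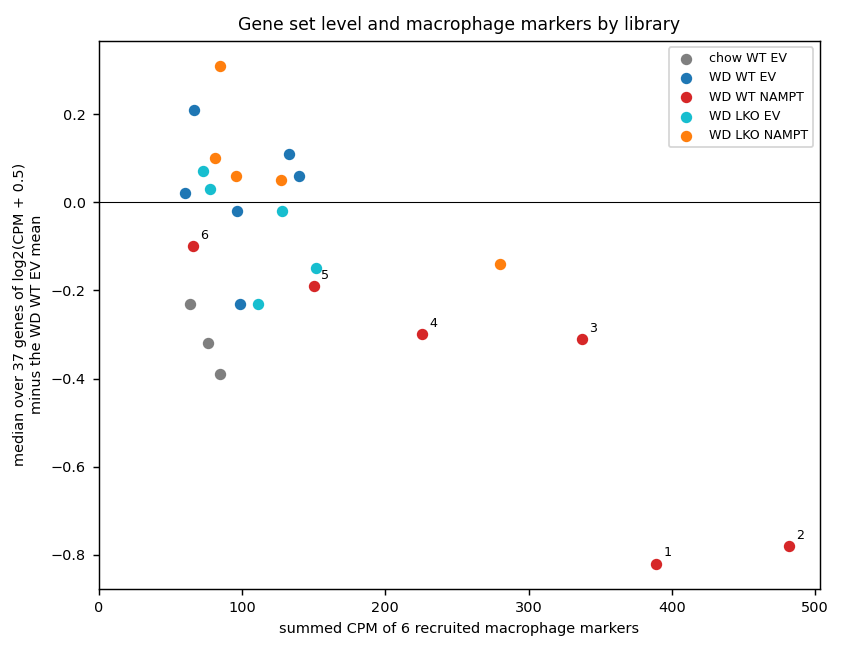
Each point is 1 library. The horizontal axis is the summed CPM of the 6 recruited macrophage markers and the vertical axis is the median over the 37 genes of log2(CPM + 0.5) minus the WD WT EV mean. The labelled red points are the 6 WD WT NAMPT replicates, of which 1 and 2 have the highest marker sums (389 and 482 CPM) and the lowest gene set medians.

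Levels of different genes were compared per kilobase of exon, as CPM per kb. In WD WT EV livers the peroxisomal thiolase Acaa1b was highest, at 888 CPM per kb, ahead of its mitochondrial counterpart Acaa2 at 365 and the peroxisomal bifunctional enzymes Ehhadh and Hsd17b4 at 158 and 152 CPM per kb. Carnitine palmitoyltransferase Cpt1a reached 116 and the medium-chain dehydrogenase Acadm 114 CPM per kb. The acyl-CoA thioesterases Acot4, Acot2, Acot8 and Acot3 lay between 9.42 and 2.47 CPM per kb at the lower end, with the pyruvate dehydrogenase kinase Pdk4 at 4.78. Only reads with a unique place were counted, so reads shared by near copies were left out. Of all 50-base windows of the Acaa1b transcripts 30.5% also occur in Acaa1a, and 24.5% of those of Acot2 occur in Acot1, so the values of these genes may be too low and are less certain than the rest.

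The promoters of 32 of the 37 genes were in the RefSeq table used here (build GRCm38.p6), in 35 windows of 250 bases before and 50 after a start. The motif that PPARA and its partner RXR are known to bind, a direct repeat spaced by 1 base, was searched on both strands as AGGNCA followed, after 1 base of any kind, by AGGNCA again. It occurred in 0 of the 35 windows and in 0.381% of all 32851 windows of the table. A single hexamer of that repeat, AGGTCA, which is a part of that repeat and was searched after these values were seen, occurred in windows of 6 genes (Acadm, Acadvl, Acot3, Acot4, Acot12 and Cpt1a). It is in 7 of the 35 windows, or 20%, and in 16.3% of all windows. These letters are a description of the windows and say nothing of binding. Stretches of 40 bases upstream of the start are shown for a gene that did not move with NAMPT (Cpt1a), a thioesterase that fell with it (Acot12) and a dehydrogenase just short of the threshold (Acadvl), on the strand of the gene, with the hexamer or its reverse complement in capitals. They lie at chr19:3323190-3323229, chr13:91741394-91741433 and, on the minus strand, chr11:70015493-70015532.
Cpt1a: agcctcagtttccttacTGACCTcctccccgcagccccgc
Acot12: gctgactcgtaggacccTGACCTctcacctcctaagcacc
Acadvl: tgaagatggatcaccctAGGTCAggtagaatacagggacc

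Hadha and Hadhb, which encode the alpha and beta subunits of the mitochondrial trifunctional protein, lie head to head on chromosome 5 (Hadha at 30118301 to 30155162 on the minus strand, Hadhb at 30155248 to 30184593 on the plus strand), and 85 bases separate their annotated ends. That stretch is shown because it lies between the starts of both genes, and both were called lower with NAMPT in WT livers. It is chr5:30155163-30155247, written on the plus strand, with the GC box GGGCGG in capitals. Within the 85 bases before the start, the box occurs on either strand in 17 of the 35 windows of the set, or 48.6%, and in 22.8% of all windows of the table.
Hadha and Hadhb: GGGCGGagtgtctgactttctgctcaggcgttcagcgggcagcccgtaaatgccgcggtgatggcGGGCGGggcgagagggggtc

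With NAMPT in WT livers on Western diet, some genes of activation, import, the mitochondrial cycle, electron transfer, peroxisomes and the thioesterases were lower, while Cpt1a, Etfb, Ppara and Bdh1 were not called. Of the 37 genes, 18 were lower in WD WT NAMPT than in WD WT EV and 0 were higher at an adjusted p of at most 0.05 (limma), where 13.4% of all genes tested were called, 5.77% lower and 7.67% higher. The median log2 fold change was -0.39 over the 37 genes and 0 over all genes tested, and 35 of the 37 differences were negative. By compartment, 12 of 18 genes of mitochondrial import, the beta-oxidation cycle and electron transfer fell, as did 4 of 9 peroxisomal genes and 2 of 6 thioesterases. Each gene was counted in a single list, whether or not its enzyme is confined to that compartment. The calls depended on the fit and on a few libraries. Of the 37 genes 5 were called by edgeR's quasi-likelihood test, 4 without quality weights, 9 with library size scaling, 9 with only the groups compared and 0 with 2 surrogate variables (median -0.26), where 428, 192, 2274, 633 and 66 of all genes were called in place of 1890. DESeq2 called 17, the exact test 12, and the fits with upper-quartile scaling, without a filter and with a filter on mean CPM 15, 12 and 18, where 1194, 851, 1808, 524 and 1871 of all genes were called. Without WD WT NAMPT replicates 1 and 2, a choice made after the data were seen, 0 of the 37 genes and 33 of all genes were called and the median was -0.26.

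Among the genes of activation and entry, Acsl1, which joins long-chain fatty acids to coenzyme A, showed the largest fall. It measured 879 to 1274 CPM (median 1039) in WD WT EV and 330 to 1191 CPM (median 543) in WD WT NAMPT, and 5 of the 6 NAMPT libraries lay below every EV library. The log2 fold change was -0.83 ± 0.18 (SE; adjusted p = 0.00921), a 1.78-fold fall. The carnitine-acylcarnitine carrier Slc25a20 went from 95.3 to 142 CPM (median 127) to 54.5 to 116 CPM (median 90.7), with a log2 fold change of -0.49 ± 0.12 (adjusted p = 0.0142). In 4 NAMPT libraries it lay below the EV range. Cpt2, the inner-membrane palmitoyltransferase, fell by 0.40 on the log2 scale. Cpt1a, the outer-membrane enzyme that controls the entry of long chains, did not follow: it measured 415 to 552 CPM (median 510) with EV and 422 to 538 CPM (median 491) with NAMPT, and the groups covered the same range (log2 fold change 0.02 ± 0.12, adjusted p = 0.94). Its 95% interval, from the fit, ran from -0.24 to 0.27.

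Within the mitochondrial cycle 7 of 11 genes fell. Hadh, the short-chain hydroxyacyl-CoA dehydrogenase, measured 323 to 484 CPM (median 440) with EV and 188 to 366 CPM (median 311) with NAMPT, and 4 NAMPT libraries lay below all EV libraries (log2 fold change -0.52 ± 0.11, adjusted p = 0.00879). Decr1, the mitochondrial 2,4-dienoyl-CoA reductase that handles unsaturated chains, measured 135 to 199 CPM (median 167) and 88.7 to 168 CPM (median 121), with 4 NAMPT libraries below the EV range (log2 fold change -0.47 ± 0.10, adjusted p = 0.0112). Acadm was the single gene of the 37 whose groups did not overlap (0.96% of all genes tested did not), with 276 to 414 CPM with EV and 192 to 273 CPM with NAMPT. Both trifunctional protein subunits were called lower: Hadha measured 318 to 357 CPM (median 332) with EV and 227 to 325 CPM (median 288) with NAMPT (-0.24 ± 0.07, adjusted p = 0.0318), and Hadhb had a log2 fold change of -0.39. Eci1, an enoyl-CoA isomerase, and Acad11, an acyl-CoA dehydrogenase of longer chains, were also called lower, at -0.46 and -0.39. The dehydrogenases Acadvl, Acadl and Acads and the thiolase Acaa2 had log2 fold changes from -0.29 to -0.23 and did not pass, with adjusted p from 0.0512 to 0.165.

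Electron transfer from the acyl-CoA dehydrogenases runs through the flavoprotein subunits Etfa and Etfb and through Etfdh, the oxidoreductase that hands electrons to ubiquinone. Etfdh measured 226 to 261 CPM (median 237) with EV and 119 to 227 CPM (median 184) with NAMPT, and 5 of 6 NAMPT libraries lay below the EV range. Its log2 fold change was -0.43 ± 0.10 (adjusted p = 0.0121). Etfa was called lower at -0.32, whereas its partner Etfb had a value of -0.14 and an adjusted p of 0.501.

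In peroxisomes, Ehhadh measured 336 to 618 CPM (median 496) with EV and 239 to 372 CPM (median 312) with NAMPT, so that its ranges met only at the low EV end (log2 fold change -0.56 ± 0.14, adjusted p = 0.0144). Decr2, the peroxisomal dienoyl-CoA reductase, measured 182 to 287 CPM (median 252) and 91.8 to 223 CPM (median 171), with -0.54 ± 0.13 (adjusted p = 0.0137). Hsd17b4 and the isomerase Eci2 were called lower at -0.39 and -0.44. Acaa1b, Acaa1a, the carnitine acyltransferases Crot and Crat, and Pex11a, a peroxisome division factor, had negative values between -0.52 and -0.23 that did not pass.

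Of the 6 thioesterases, which release free fatty acids from acyl-CoA, 2 were called lower. Acot1, the cytosolic long-chain enzyme, measured 15.7 to 45.7 CPM (median 34.2) with EV and 15.3 to 28.7 CPM (median 19.7) with NAMPT, and its log2 fold change was -0.67 ± 0.22 (adjusted p = 0.0467). Acot12, an acetyl-CoA hydrolase, measured 86.1 to 120 CPM (median 104) and 53.1 to 112 CPM (median 72.4), with -0.47 ± 0.12 (adjusted p = 0.0185). The ranges of both genes overlapped. Acot2, Acot3, Acot4 and Acot8 lay between -0.49 and 0.13 and were not called.

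The regulator Ppara itself measured 193 to 273 CPM (median 204) with EV and 103 to 260 CPM (median 175) with NAMPT. Only NAMPT replicates 1 to 4 lay below the EV range, and the log2 fold change of -0.29 ± 0.16 was not called (adjusted p = 0.221). Bdh1, which interconverts both ketone bodies, measured 223 to 286 CPM (median 263) with EV and 152 to 258 CPM (median 230) with NAMPT (-0.17 ± 0.10, adjusted p = 0.25). NAMPT replicates 1 and 2 lay below the EV range and the other 4 within it. Of both further PPARA targets, Pdk4 ran from 4.38 to 31.1 CPM (median 15.7) with EV and 3.07 to 16 CPM (median 10.8) with NAMPT (-0.24 ± 0.37, adjusted p = 0.698). The vanin Vnn1, which makes cysteamine, had the most negative value of the set, -0.84 ± 0.37, but a spread from 8.85 to 61.2 CPM within WD WT NAMPT alone, and was not called (adjusted p = 0.123).

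**Figure D3:**
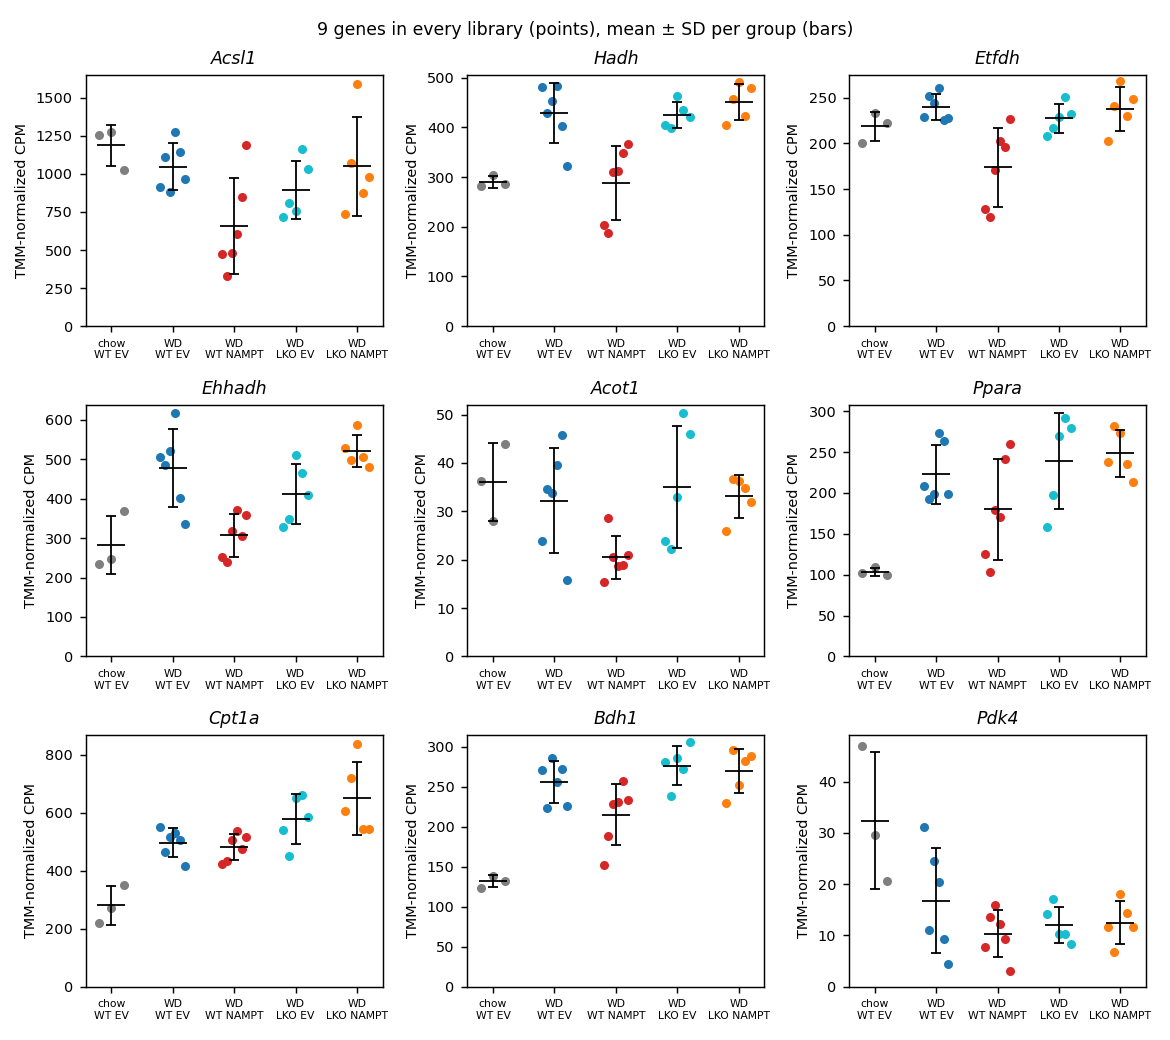
Points are libraries and bars are the mean ± SD of each group for 9 genes, in TMM-normalized CPM with axes from 0. Acsl1, Hadh, Etfdh, Ehhadh and Acot1 have lower means in WD WT NAMPT than in the other Western diet groups, the Cpt1a means of WD WT NAMPT and WD WT EV are close (482 and 497 CPM), and Ppara, Cpt1a and Bdh1 are lowest on chow.

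Single libraries also decided how many of the 37 genes were called in WT livers. The count was 2 without WD WT NAMPT replicate 3 (Hadh and Decr1), 11 without WD WT NAMPT replicate 2, 7 without WD WT EV replicate 2 and 10 without WD WT EV replicate 6, and over all genes tested the calls fell to between 132 and 731 in those fits. The direction of the 18 called genes was negative in every one of the 12 fits that left out 1 library. Other cell type markers moved in the same comparison: 4 of 6 recruited macrophage markers, 2 of 5 Kupffer cell markers, 2 of the 3 neutrophil markers kept and 2 of 5 stellate cell markers were called higher, and 1 of 6 hepatocyte markers (Asgr1) was called lower. Of 4 endothelial markers, Pecam1 was called higher (0.36) and Clec4g lower (-0.40). The macrophage marker sum ran from 60.2 to 140 CPM in WD WT EV and from 65.6 to 482 CPM in WD WT NAMPT, and the neutrophil gene Ly6g was at or near 0 in all groups, with at most 0.0845 CPM. Of 12 clock genes 3 were called, or 25% beside 13.4% of all genes. These were Arntl, Npas2 and Clock, all lower, with log2 fold changes of -1.99, -1.98 and -0.43. Of the 12 values 7 were positive, up to 1.23, and the median was 0.22. The part of cell composition and of collection time in the result was not tested.

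In livers labelled LKO no gene of the set passed the test with NAMPT. Of the 37 genes, 0 were called between WD LKO NAMPT and WD LKO EV by limma, against 0.00711% of all genes tested, and edgeR and DESeq2 also called 0. At an unadjusted p under 0.05 there were 4 (Hadhb, Acadm, Decr1 and Ehhadh), all higher with NAMPT, or 10.8% of the 37 genes beside 9.63% of all genes. The median log2 fold change was 0.13, against 0.02 over all genes, and 35 of the 37 values were positive, or 94.6% beside 53.7% of all genes. By edgeR and DESeq2 28 and 27 were positive. Leaving out single libraries moved the median between 0.05 (25 positive, without WD LKO EV replicate 2) and 0.18 (35 positive, without WD LKO EV replicate 4).

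The groups overlapped for each of the 37 genes, as they did for most genes (1.15% of all genes tested did not overlap). Acsl1 measured 715, 808, 755, 1164 and 1030 CPM with EV and 735, 1071, 1590, 875 and 979 CPM with NAMPT (log2 fold change 0.21, 95% interval -0.18 to 0.60). Ehhadh measured 329, 348, 511, 464 and 410 CPM with EV and 528, 498, 586, 507 and 481 CPM with NAMPT (0.32 ± 0.15, adjusted p = 0.502). Only WD LKO EV replicate 3 reached into the NAMPT range. Hadha measured 316, 281, 317, 356 and 345 CPM with EV and 334, 353, 378, 341 and 323 CPM with NAMPT (0.11, interval -0.05 to 0.27). Etfdh measured 208, 217, 229, 251 and 232 CPM against 203, 241, 268, 230 and 249 CPM (0.08, interval -0.14 to 0.29). Apart from that of Ehhadh, whose interval ran from 0.01 to 0.62, these intervals hold 0 and also rises of the upper sizes given.

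For Ppara the 5 LKO EV libraries held 158, 197, 270, 292 and 280 CPM and the 5 LKO NAMPT libraries 238, 282, 273, 236 and 213 CPM (0.10, interval -0.24 to 0.45). Cpt1a stood at 541, 452, 651, 663 and 587 CPM and at 605, 719, 838, 544 and 545 CPM (0.17, interval -0.11 to 0.44). For both genes the ranges of the vectors overlapped. Acot1 stood at 23.9, 22.3, 32.9, 50.3 and 45.9 CPM and at 25.9, 36.6, 36.2, 34.8 and 32 CPM (0.06, interval -0.40 to 0.52). Bdh1 stood at 281, 239, 286, 272 and 306 CPM and at 230, 296, 253, 282 and 289 CPM (0.04, interval -0.18 to 0.25). The means ran the other way than both small fitted values, from 35.1 to 33.1 CPM for Acot1 and from 277 to 270 CPM for Bdh1. Neither order nor level separated the vectors for these genes. Pdk4 was low and scattered, with 14.1, 17.1, 10.2, 10.3 and 8.29 CPM against 11.7, 6.73, 18, 14.4 and 11.6 CPM (-0.21, interval -1.02 to 0.60). Its means, 12 CPM with EV and 12.5 CPM with NAMPT, ran the other way than the fit. The fitted value lay between -0.37 and 0.18 when single libraries were left out, so its direction is open.

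**Figure D4:**
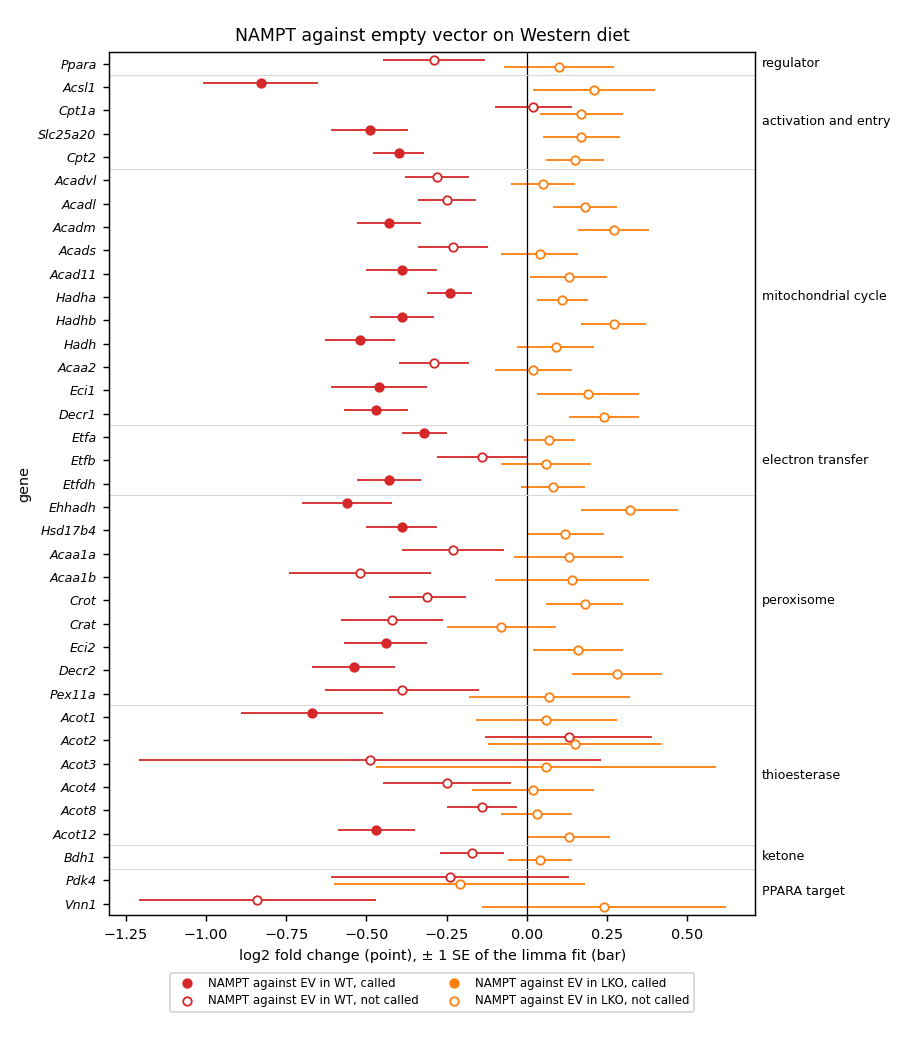
Log2 fold change of NAMPT against empty vector for each of the 37 genes in WT livers (red) and LKO livers (orange), with bars of ± 1 SE from the limma fit. Filled points passed an adjusted p of at most 0.05, which 18 genes did in WT and 0 in LKO livers; no interaction passed that threshold.

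The difference between both NAMPT effects was tested directly as an interaction, the effect in LKO minus the effect in WT. All 37 values were positive, from 0.03 to 1.08 with a median of 0.51, where 48.7% of all genes were positive and their median was -0.01. With library size or upper-quartile scaling 34 and 35 of the 37 were positive. By limma 0 of the 37 passed the adjusted threshold (0.00711% of all genes did), edgeR's quasi-likelihood test also called 0, and DESeq2 called 3, with 13 of all genes. At an unadjusted p under 0.05 there were 21 of the 37 genes, or 56.8% beside 21.2% of all genes. Genes of 1 pathway are not independent, and all 37 values share the same 22 libraries.

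The smallest adjusted p belonged to Decr1 (0.72 ± 0.15, adjusted p = 0.0574), and Acadm, Hadhb and Cpt2 followed at 0.70, 0.66 and 0.55 with adjusted p up to 0.0604. Acsl1 had the largest value with an adjusted p under 0.1, 1.04 ± 0.26 (adjusted p = 0.0688), and Ehhadh stood at 0.88 ± 0.20 (adjusted p = 0.0653). The regulator Ppara (0.39 ± 0.23, adjusted p = 0.323), Cpt1a (0.15 ± 0.18, adjusted p = 0.658), Bdh1 (0.20 ± 0.14, adjusted p = 0.412) and Pdk4 (0.03 ± 0.53, adjusted p = 0.979) gave smaller values for their spread. Etfdh and Hadha stood at 0.51 and 0.36 (adjusted p = 0.0782 and 0.0897), and Acot1 at 0.73 (adjusted p = 0.185). How many passed depended on the libraries: 15 without WD WT NAMPT replicate 6, 14 without WD LKO NAMPT replicate 1, 13 without WD WT NAMPT replicate 5, 6 without WD WT EV replicate 8, and 4 and 2 without WD LKO EV replicates 4 and 3. The calls over all genes rose in the same fits, from 1 to 638, 676, 366, 62, 33 and 19 in that order. It was 0 without WD WT NAMPT replicates 1 and 2, where the median was 0.35 and all 37 values were still positive.

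WD LKO NAMPT livers were also set against WD WT NAMPT livers, a comparison that shares its WT libraries with the WT effect above and is not independent of it. Here 20 of the 37 genes were higher in LKO and 0 lower, where 7.96% of all genes tested were called, 4.18% higher and 3.78% lower. The median was 0.42, beside -0.01 over all genes. The count depended on the fit. It was 6 by edgeR's quasi-likelihood test, 6 without quality weights, 1 with only the groups compared and 2 with 2 surrogate variables, where 45, 38, 12 and 32 of all genes were called in place of 1120. It was 15 by DESeq2, 11 by the exact test, 14 with upper-quartile scaling, 13 with library size scaling, 10 without a filter and 20 with a filter on mean CPM, where 294, 173, 1058, 838, 120 and 1229 of all genes were called. The genes called were Acsl1, Slc25a20 and Cpt2 of entry, 8 of the 11 genes of the mitochondrial cycle, and Etfa and Etfdh. Ehhadh, Crat, Eci2 and Decr2 of the peroxisomal list and the thioesterases Acot1, Acot4 and Acot12 were called as well.

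The largest value among them was that of Acot1, whose WT libraries lay between 15.3 and 28.7 CPM (median 19.7) and whose LKO libraries held the 25.9 to 36.6 CPM given above (log2 difference 0.78 ± 0.23, adjusted p = 0.0413). Acsl1 differed by 0.76 ± 0.19 (adjusted p = 0.0228), with LKO libraries from 735 to 1590 CPM that overlapped the WT range of 330 to 1191 CPM. Acot4, a thioesterase of dicarboxylic acids, measured 11.6 to 23.8 CPM (median 20.1) in WT and 31.4, 43.6, 36.7, 23.1 and 24.3 CPM in LKO (0.66 ± 0.20, adjusted p = 0.0471). The LKO libraries reached into the WT range only at their low end.

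Ehhadh, at 239 to 372 CPM in WT and 481 to 586 CPM in LKO, did not overlap (0.65 ± 0.15, adjusted p = 0.0196). Hadh did not overlap either, with LKO values of 405, 456, 491, 423 and 479 CPM against a WT maximum of 366 CPM (0.60 ± 0.12, adjusted p = 0.0139). Eci1, Acadm and Crat were further called genes without overlap. The groups of 7 of the 37 genes did not overlap, where 1.39% of all genes tested did not. Decr1 held 158, 201, 216, 167 and 187 CPM in LKO against 88.7 to 168 CPM in WT (0.63 ± 0.11, adjusted p = 0.0107). Eci2 held 77.4, 119, 123, 98.6 and 94 CPM against 53.3 to 119 CPM (0.63 ± 0.14, adjusted p = 0.0187). For Eci2 the WT maximum came from replicate 6. Decr2 held 199, 260, 304, 259 and 255 CPM against 91.8 to 223 CPM (0.61 ± 0.14, adjusted p = 0.0201).

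Hadha and Etfdh were called higher, by 0.28 ± 0.08 (adjusted p = 0.0336) and 0.41 ± 0.10 (adjusted p = 0.0239). Ppara (0.49 ± 0.17, adjusted p = 0.0647), Bdh1 (0.33 ± 0.10, adjusted p = 0.0517), Cpt1a (0.34 ± 0.13, adjusted p = 0.0949) and Vnn1 (1.20 ± 0.39, adjusted p = 0.0542) did not pass, although the groups of Cpt1a and Vnn1 did not overlap, and neither did Pdk4 pass (-0.21 ± 0.40, adjusted p = 0.76). The Pdk4 means, 10.3 CPM in WT and 12.5 CPM in LKO, ran the other way than its fit. Its fitted value lay between -0.37 and 0.18 when single libraries were left out. Acot3 had the highest value of the set, 1.57, with adjusted p = 0.122 and LKO values scattered from 4.34 to 40.9 CPM. Without WD WT NAMPT replicates 1 and 2 the calls fell from 20 to 3 (Hadhb, Hadh and Decr1) and the median to 0.31, while those over all genes fell from 1120 to 22. The count was 0 without WD LKO NAMPT replicate 2 and 0 without replicate 5, when 0 and 2 of all genes were called, 10 without WD LKO NAMPT replicate 3, and 7, 4 and 13 without WD WT NAMPT replicates 2, 3 and 4. In these last 4 fits 200, 150, 78 and 653 of all genes were called. In the same comparison 1 of 6 macrophage markers (Lyz2, -1.05), 1 of 3 neutrophil markers kept (Csf3r, -1.31), 1 of 5 stellate cell markers (Pdgfrb, -0.61) and 1 of 4 cholangiocyte markers (Sox9, -1.44) were called lower. All 6 macrophage markers had negative values, 5 with an unadjusted p under 0.05 (median -1.27), as had all 3 neutrophil markers kept, each with such a p (median -1.16), and all 5 Kupffer cell markers, 3 with such a p (median -0.51). The part of these cells in the result was not tested.

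Without the NAMPT vector, no gene of the set separated the genotypes as labelled. Between WD LKO EV and WD WT EV 0 of the 37 genes were called by limma (0.00711% of all genes), edgeR or DESeq2, and 2 had an unadjusted p under 0.05, or 5.41% of the 37 genes beside 6.33% of all genes, Crot at -0.31 ± 0.11 and Acot4 at 0.40 ± 0.19. The median log2 fold change was -0.07, against 0 over all genes. It was -0.02 without WD LKO EV replicate 2 and -0.14 with the replicate number as a block. For Ppara, Hadha, Etfdh, Acot1 and Bdh1 the values were 0.10 ± 0.15, -0.07 ± 0.07, -0.10 ± 0.09, 0.05 ± 0.21 and 0.13 ± 0.09, with adjusted p of at least 0.919. Cpt1a (0.19 ± 0.12), Ehhadh (-0.23 ± 0.14) and Pdk4 (-0.24 ± 0.36) were not called either. Acot3 varied most: it stood between 1.52 and 11 CPM in WD WT EV and at 4.98, 5.31, 9.8, 39.1 and 30 CPM in WD LKO EV, so replicates 4 and 5 carried the difference of 1.02 ± 0.60 (adjusted p = 0.871).

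Western diet itself, in WT mice with empty vector, went with higher levels of much of the set. Against chow, 16 of the 37 genes were higher and 2 lower, where 22% of all genes tested were called, 10.1% higher and 12% lower. The median was 0.31 over the 37 genes and 0 over all. Called higher were 6 of 9 peroxisomal genes and 6 of 18 genes of mitochondrial import, cycle and electron transfer, of which 8 and 14 had positive values. The 3 electron transfer genes had log2 fold changes of -0.10 to 0.14 and were not called. No test compared these gene groups. The groups of 11 of the 37 genes did not overlap, where 16.1% of all genes tested did not. The 16 higher calls fell to 9 by edgeR's quasi-likelihood test, 10 by its exact test, 11 by DESeq2 and 8 without quality weights, where the calls over all genes fell from 3101 to 1322, 1465, 1745 and 1201. In the fits with other scalings, other filters, only the groups compared or 2 surrogate variables they numbered 12 to 23. Both lower calls, Pdk4 and Crot, were absent by edgeR's quasi-likelihood and exact tests and by DESeq2, without quality weights, and without chow replicate 1 or 2, although both values stayed negative. In the 9 fits that left out 1 library, the call of Crot was lost in 7 and that of Pdk4 in 2. Of the higher calls, Acaa1a and Decr1 were each lost in 7 of these fits and Eci1 in 6. This comparison uses the same WD WT EV libraries as the NAMPT comparison in WT mice.

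Ppara rose from 102, 109 and 99.1 CPM on chow to 193 to 273 CPM (median 204) on Western diet, without overlap (1.04 ± 0.16, adjusted p = 5.69e-05). Its target Vnn1 rose most, from 8.84, 10 and 7.56 CPM to 12.5 to 113 CPM (median 73.8), a 6.69-fold change (2.74 ± 0.48, adjusted p = 0.00026). The library at 12.5 CPM was WD WT EV replicate 8, which was also the lowest of its group for Acaa1b and Pex11a. Pdk4, a PPARA target that restrains glucose oxidation, was called lower, from 46.9, 29.6 and 20.6 CPM to 4.38 to 31.1 CPM (median 15.7), with overlapping groups (-1.29 ± 0.34, adjusted p = 0.00873).

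At the entry step Cpt1a rose from 219, 270 and 351 CPM to 415 to 552 CPM (median 510), without overlap (0.93 ± 0.12, adjusted p = 8.86e-06), and Slc25a20 rose by 0.44, while Acsl1 (1254, 1278 and 1029 CPM on chow; -0.24 ± 0.19) and Cpt2 (-0.08) were not called. In the mitochondrial cycle Hadh, Eci1, Acad11 and Decr1 rose by 0.54, 0.44, 0.36 and 0.31. Hadha stood at 290, 324 and 353 CPM on chow and 318 to 357 CPM on the diet (0.09 ± 0.08, adjusted p = 0.444), and Etfdh at 201, 233 and 222 CPM on chow and 226 to 261 CPM on the diet (0.14 ± 0.10, adjusted p = 0.328). Acads stood higher in every diet library without passing (0.27, adjusted p = 0.0973).

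Peroxisomal Acaa1b rose from 618, 657 and 652 CPM to 945 to 2156 CPM (median 1892), 2.63-fold (1.39 ± 0.22, adjusted p = 0.000104), and its near copy Acaa1a by 0.48. Pex11a rose from 39.3, 46.4 and 25.1 CPM to 33.9 to 116 CPM (median 92.4; 0.99 ± 0.25, adjusted p = 0.00756), where only replicate 8 fell inside the chow range. Ehhadh rose from 235, 247 and 368 CPM to 336 to 618 CPM (median 496; 0.90 ± 0.14, adjusted p = 7.32e-05), with chow replicate 3 inside the diet range. Crat and Decr2 rose by 0.74 and 0.56, and Crot, which readies shortened chains for export from the peroxisome, was called lower (log2 fold change -0.34, adjusted p = 0.0457). The ketone enzyme Bdh1 rose from 124, 139 and 132 CPM to 223 to 286 CPM (median 263; 0.92 ± 0.10, adjusted p = 4.97e-07), with no overlap. Among thioesterases Acot4 rose by 0.88, while Acot1 measured 36.3, 28 and 44 CPM on chow and did not differ beyond its spread (-0.06 ± 0.22, adjusted p = 0.871).

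**Figure D5:**
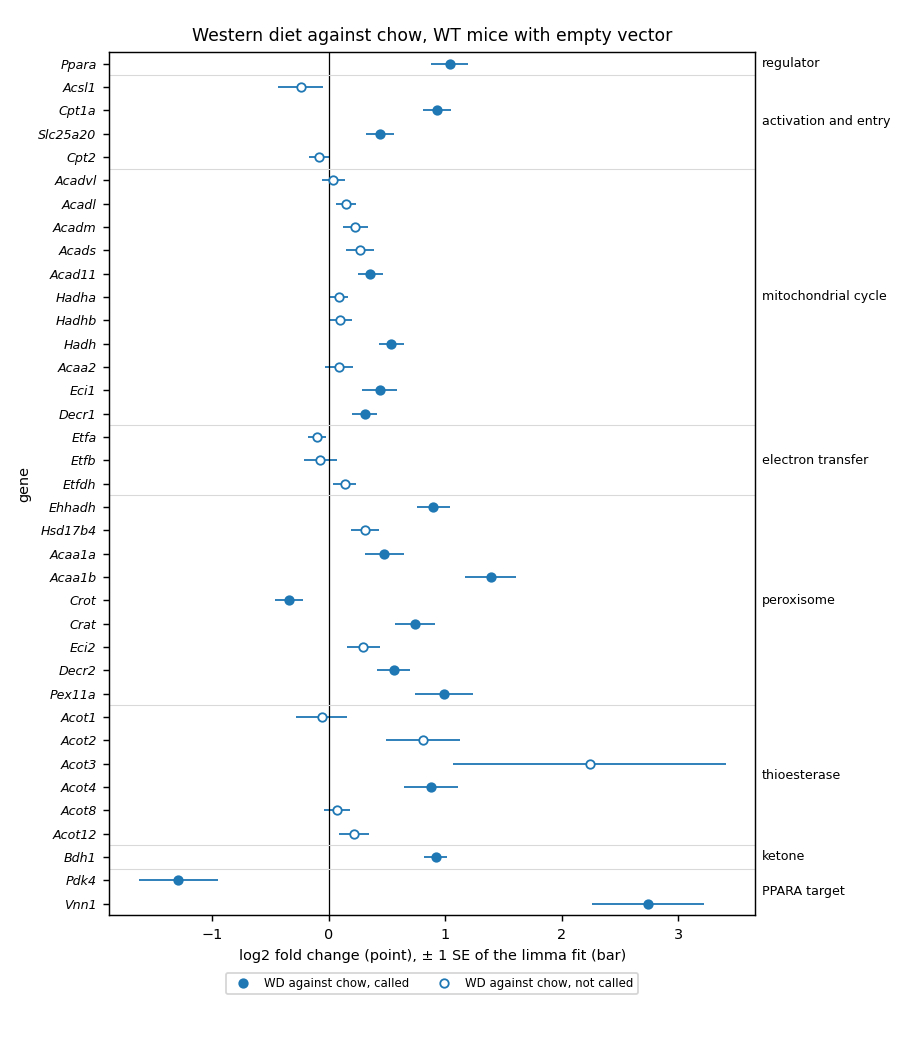
Log2 fold change of Western diet against chow in WT mice with empty vector for each of the 37 genes, with bars of ± 1 SE from the limma fit. Filled points passed an adjusted p of at most 0.05: 16 genes to the right of 0, led by Vnn1 at 2.74, and Pdk4 and Crot to the left.

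With 3 chow mice, the number of calls depended on replicates 1 and 2: it was 8 without chow replicate 1, 10 without replicate 2 and 15 without replicate 3, where 952, 843 and 3058 of all genes were called in place of 3101. Of 12 clock genes, 10 were called between these groups, 6 higher (Dbp at 4.04 on the log2 scale) and 4 lower, and the urea cycle genes Cps1 and Ass1 of the hepatocyte list were lower (-1.22 and -0.93). Of the 5 Kupffer cell markers 1 (Cd5l) was called higher, of the 5 stellate cell markers 1 (Lrat) higher and of the 4 endothelial markers 1 (Kdr) lower. Of the 6 macrophage markers Cd68 was higher (0.79), with marker sums of 64 to 84.4 CPM on chow and 60.2 to 140 CPM on Western diet. The part of these in the diet result was not tested, and the labels give no hour of collection.

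Set in the order of their group means in CPM, Ppara ran chow (103 ± 4.87, SD), WD WT NAMPT (180 ± 62), WD WT EV (223 ± 36.1), WD LKO EV (239 ± 58.5) and WD LKO NAMPT (249 ± 28.5). Among the WD groups no neighbours in this order differed by more than the larger of their SDs. Ehhadh ran chow (283 ± 73.3), WD WT NAMPT (307 ± 54.5), WD LKO EV (412 ± 76.6), WD WT EV (478 ± 98) and WD LKO NAMPT (520 ± 40.6). Chow and WD WT NAMPT were neighbours within their spread. For Acsl1 the order differed, with chow at the top (1187 ± 137) and WD WT NAMPT at the bottom (655 ± 315).

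The genes around the 37 members were taken from lists of textbook pathway genes. Of 7 further ketone body genes, 3 were called lower and 1 higher in WD WT NAMPT than in WD WT EV, beside 5.77% and 7.67% of all genes. Among them the thiolase Acat1 was lower (log2 fold change -0.46, adjusted p = 0.0142). Oxct1, the enzyme of ketone use that hepatocytes largely lack, was higher (0.77 ± 0.22, adjusted p = 0.0245), at 3.75 to 5.75 CPM with EV and 3.55 to 15.2 CPM with NAMPT. In WD LKO NAMPT against WD WT NAMPT Oxct1 was lower (-0.79, adjusted p = 0.0359). In LKO livers 0 of the 7 were called by limma with NAMPT, and 0 had an unadjusted p under 0.05.

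Of 15 further peroxisomal genes, 6 were called lower with NAMPT in WT livers, beside 5.77% of all genes. They included the catalase gene Cat (-0.54), the very-long-chain synthetase Slc27a2 (-0.53), the phytanoyl-CoA hydroxylase Phyh (-0.46) and the import factors Pex7 and Pex14 (-0.36 and -0.25). In WD LKO NAMPT against WD WT NAMPT 6 of the 15 were called higher, beside 4.18% of all genes, among them Pex7, Pex13, Pex14 and Slc27a2. Of 9 further mitochondrial genes kept, Hibch and Echs1 were lower with NAMPT in WT (-0.44 and -0.30), and Hibch was higher in LKO NAMPT than in WT NAMPT (0.51).

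Of 10 regulators 0 were called by limma with NAMPT in either genotype, and 2 had an unadjusted p under 0.05 in each, or 20% beside 30.3% of all genes in WT and 9.63% in LKO. The coactivator Ppargc1a stood at 7.47 to 12.9 CPM in WD WT EV and 4.5 to 10.1 CPM in WD WT NAMPT (-0.26 ± 0.17, adjusted p = 0.326), and at -0.20 (adjusted p = 0.752) with NAMPT in LKO. With Western diet Acat1 (0.50) and Slc27a2 (0.56) rose, and the cytosolic Bdh2 fell (-0.54). Pparg, the adipogenic relative of Ppara, rose (1.29 ± 0.27, adjusted p = 0.00171) and Ppard fell (-1.74 ± 0.22, adjusted p = 5.89e-06), while Ppargc1a had a value of -0.36 (adjusted p = 0.134). These lists were chosen with earlier results of the same data known and are no independent evidence of a direction.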

How the data were processed

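Poly-A RNA of 25 mouse livers was sequenced, and the authors aligned the reads to the mouse genome (GRCm38) and deposited, for each library, a table of raw counts per gene with CPM and RPKM values. The submitters' processing notes name STAR 2.5.1a and featureCounts 1.4.6-p5; whether counting used strand is not given in the sources used here. CPM and RPKM as deposited follow from the counts to within a relative deviation of 5.9e-14 and were not themselves tested. No libraries of a group agreed within sampling noise (smallest chi-square per degree of freedom 15.1).

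Groups were taken from the sample titles. Genes above 1 CPM in at least 2 libraries were kept, apart from 4 genes of ribosomal RNA, for a total of 14065. Counts were scaled by TMM factors in edgeR 4.0.16 and fitted over all 5 groups with limma 3.58.1 (voom with sample quality weights, R 4.3.3). Adjusted p-values are Benjamini-Hochberg values over all 14065 genes, with a threshold of 0.05, and errors are standard errors of that fit. Of these steps only the limma fit was tested on simulated data, for some of the comparisons. The 37 genes and all lists were chosen with earlier results of these data known. Library values were given for 1 gene per role (Ppara, Cpt1a, Hadha, Etfdh, Ehhadh, Acot1, Bdh1 and Pdk4) and for up to 8 called genes of largest change per comparison. Some genes of the further lists are counted but not reported here by name. Outside that rule, Vnn1, Acadm, Acot3, Acsl1 and Slc25a20 were given by library or range where they stood apart. The plots use log2(CPM + 0.5).

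Alternatives were edgeR's quasi-likelihood and exact tests, DESeq2 1.42.0, no quality weights, library size or upper-quartile scaling, other filters, fits on only those groups being compared, a block for replicate number, 2 surrogate variables (sva 3.50.0) and each library left out. Leaving out WD WT NAMPT replicates 1 and 2 and searching AGGTCA and GGGCGG were chosen after seeing the data. Promoters came from the RefSeq table of GRCm38.p6, where 32 of the 37 genes matched, and Vnn1, Acaa2, Crat, Decr1 and Hsd17b4 did not. Depth was 20166175 to 32937326 counts per library.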

Additional observations from a re-analysis of the deposited data

Results flagged for a closer look

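Of 148 groups of 4 to 10 libraries tested for a library far from the rest of its group, 4 met Dixon's criterion, where chance gives about 1 in 20. The acyl-CoA dehydrogenase Acad11 stood at 293 CPM in WD LKO EV replicate 4, against 223 to 238 CPM in the other 4 libraries, and at 402 CPM in WD LKO NAMPT replicate 3, against 216 to 265 CPM. In the same WD LKO NAMPT replicate 3 the acetyl-CoA hydrolase Acot12 stood at 177 CPM, against 88.7 to 111 CPM. The electron transfer flavoprotein subunit Etfb stood at 200 CPM in WD LKO EV replicate 5, against 125 to 145 CPM.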

How the results depend on the processing

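Of the 37 genes, the number called between WD WT NAMPT and WD WT EV was 18 as reported, 5 by edgeR's quasi-likelihood test, 4 without quality weights, 9 with library size only, 9 with only the groups compared, 0 with 2 surrogate variables and 0 without WD WT NAMPT replicates 1 and 2, where 428, 192, 2274, 633, 66 and 33 of all genes were called in place of 1890, and 2 to 22 when single libraries were left out. It was 12 to 18 by the exact test and DESeq2, with upper-quartile scaling and with other filters. For WD LKO NAMPT against WD WT NAMPT it was 20, and 6, 6, 13, 1, 2 and 3 in the same order of settings, where 45, 38, 838, 12, 32 and 22 of all genes were called in place of 1120, 11 by the exact test and 10 without a filter (173 and 120 of all genes), 14 to 20 by DESeq2, with upper-quartile scaling and with a filter on mean CPM, and 0 to 24 when single libraries were left out. For Western diet against chow it was 18, and 9 by the quasi-likelihood test, 10 by the exact test, 11 by DESeq2, 8 without quality weights, where 1322, 1465, 1745 and 1201 of all genes were called in place of 3101, and 8 to 19 when single libraries were left out. It was 13 to 24 with other scalings, other filters, only the groups compared or 2 surrogate variables. The interaction gave 0, 3 by DESeq2 (13 of all genes) and 0 to 15 when single libraries were left out. Both other comparisons gave 0 in every setting run (0 to 0). The cause of these changes was not tested. No gene called in the report changed sign in any setting run. Library size scaling alone moved the median of all genes to 0.16 in the first comparison and to -0.12 in the second.

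With the replicate number as a block the counts were 23, 17 and 17 in these 3 comparisons and 9 for the interaction, where 884, 412, 3841 and 66 of all genes were called. Deviations of libraries of the same number from their group means had correlations from -0.34 to 0.38. With so few libraries per group, these values cannot decide whether the numbers pair the mice. Among the 37 genes Acot3, the lowest per kb, had the widest interval in the first comparison, from -2 to 1.02.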
